A study of Mus musculus with 2197 samples.

Results

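Insulin-producing cells that had developed in cultured pancreas were compared with insulin-producing cells sorted straight from the embryo. All cells carried the Ins1-RFP transgene, a red fluorescent reporter of the insulin gene Ins1, and were sorted as Ins1-RFP+. The cultured cells came from dorsal pancreata dissected at E13.0 (an embryonic day) and kept for 48 hours, 3 pancreata to a membrane, in medium with 10% fetal bovine serum and without the MEK inhibitor U0126. They are called control explant cells below. The fresh cells were sorted from E15.5 pancreas with no culture. The members were all Smart-seq2 cells that the labels put in these groups, 97 of the 2195 Smart-seq2 cells of the study. They comprised 58 control explant cells in 4 sets of 8, 12, 18 and 20 cells and 39 fresh cells in 2 sets of 10 and 29 cells. Explants cultured in the same way with 10 µM U0126 gave 60 further cells in 4 sets of 7, 13, 20 and 20, which share the fit below and are otherwise used only for description. In both treatments explant set 4 has the source name "Pancreas" where sets 1 to 3 have "Pancreas explant", and it was kept as explant by its title and treatment. Uncultured cells of another reporter, Ngn3-GFPhigh at E14.5 and E15.5 and Ngn3-GFP+ at E16.5 and E17.5, are used for levels only. Sets follow the numbering in the sample titles, and the labels do not say whether it is a litter, a culture or a plate. If sets are technical, the p-values below measure technical spread only. The protocol names dorsal pancreas and a digestion with collagenase P and trypsin for the explants, and for the fresh cells the labels name neither a lobe nor a digestion. Culture, serum, the day of dissection, the lobe, the digestion and the occasion of the experiment therefore cannot be told apart.

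Beta cells make, fold and store insulin and depend on the endoplasmic reticulum for that work. Cells hold their cholesterol supply steady through the transcription factor SREBP2, which leaves the reticulum for the nucleus when membrane sterol is low and raises the genes of sterol synthesis and uptake. A second circuit, the amino acid or integrated stress response, acts through the transcription factor ATF4, which raises genes of amino acid synthesis, amino acid uptake and transfer RNA charging. These statements are background on how the circuits work and were not measured here.

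Each set was the unit of replication, and counts were summed over its cells. The sums held 8368493 to 14358854 reads in the explant sets and 9352969 and 37117826 in the fresh sets. The median cell had 437449 to 1221260 reads in the explant sets and 925378 and 1252270 in the fresh sets. ERCC spike-in reads made up a median of 0.808% to 2.22% of a cell's reads in the explant sets and 3.06% and 3.73% in the fresh sets, so these ranges did not overlap (exact permutation test over sets, two-sided p = 0.0667, the smallest that 2 against 4 sets allow). In all 97 cells Ins1 and Ins2 together reached at least 1000 CPM (a gene's reads scaled to a common library total), with a lowest cell of 9088 CPM. No cell had 3 or more markers of mesenchyme, endothelium, leukocytes, neural and glial cells or acinar cells at 100 CPM. Summed per set, the endothelium list reached at most 6.63 CPM, the mesenchyme list 22.8 to 66.5 CPM, the leukocyte list 65.6 to 171 CPM, the acinar list 37.6 to 116 CPM and the neural and glial list 186.0 to 372 CPM over the 6 sets. The erythroid and liver list, which holds the transthyretin gene Ttr that islets also express, was at 698 and 809 CPM in the fresh sets and 1377 to 1895 CPM in the explant sets. Pdgfra, which defines mesenchyme, and Cdh5, which defines endothelium, had no read in any set. At least 3 of 14 duct and trunk markers were reached by 19 of 58 explant cells and 16 of 39 fresh cells, and this list holds genes that insulin-high cells also express. Neurog3 or Fev, which mark endocrine precursors, reached 100 CPM in 7 of 58 explant cells and 4 of 39 fresh cells. At 30 CPM these numbers were 34 of 58 and 16 of 39, with Neurog3 alone in 13 and 2 cells. At 300 CPM they were 3 of 58 and 0 of 39. By set, the share at 30 CPM was 87.5%, 83.3%, 44.4% and 45% in explant sets 1 to 4. It was 40% and 41.4% in the fresh sets. Ppy reached 1000 CPM in 2 explant cells and no other non-insulin islet hormone did in any cell, where 0 of 58 cells allows a share of up to 5.17% and 0 of 39 a share of up to 7.69%.

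The genes that passed the test were mainly genes of the sterol pathway and fatty acid desaturation, together with targets and the gene of ATF4, and nearly all were higher after culture. Of 14721 genes tested, 36 passed (0.245%), 33 higher (0.224%) and 3 lower (0.0204%) in control explants, by edgeR's quasi-likelihood test with a Benjamini-Hochberg adjusted p under 0.05. The median log2 fold change (control explant minus fresh) of all tested genes was 0.0058, and 1248 genes had an unadjusted p under 0.05. DESeq2 on the same sums passed 320 genes (2.34% of those given an adjusted p), 253 higher (1.85%) and 67 lower (0.489%), including all 36. The count rests on the small number of fresh sets. Without fresh set 1, which leaves a single fresh set assumed to vary like the other groups, 3 genes passed, of which Scd2 and Trib3 were among the 36, and without fresh set 2, 33 genes did, 15 of them among the 36. With only explant sets 1 and 2 of both treatments 1 gene passed, Scd2, and with only explant sets 3 and 4, 3 did, Scd2, Chac1 and Msmo1. All 36 genes had the same direction in each of the 19 alternative fits. Each of the 36 had every explant set on 1 side of both fresh sets. Fits of these same cells could therefore hardly turn a sign, and the kept direction is no further support.

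**Figure D1:**
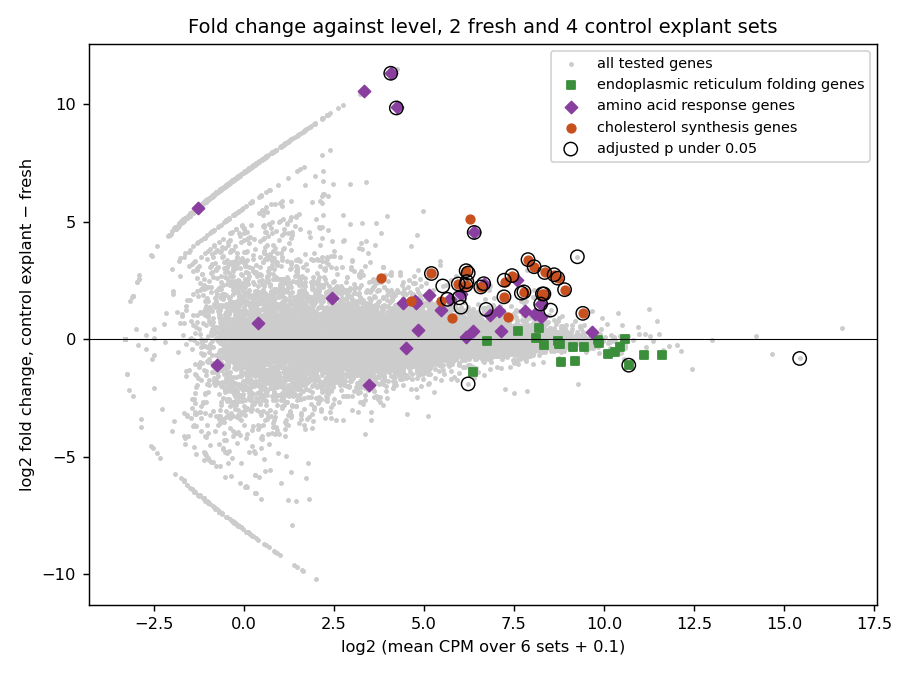
The horizontal axis gives the log2 of the mean level over the 6 sets (CPM plus 0.1) and the vertical axis the log2 fold change of control explant minus fresh for each tested gene. Coloured marks are 3 gene lists and black rings the 36 genes that passed, of which 33 lie above 0. Genes of low level spread widely because 1 group has few or no reads.

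Sterol synthesis genes formed the largest group. Of the 24 genes of the list, which holds enzymes of the pathway and genes of its regulation and transport, all 24 were tested and 17 passed, all higher. Their log2 fold changes were all above 0 with a median of 2.33, beside 0.0058 for all genes. In 22 of the 24 every explant set lay above both fresh sets, a separation seen in 8.49% of all tested genes. Members of this and the other lists were chosen with earlier results of these data known. The shares given for lists therefore describe them and are no test. The summed level of the list was 1434 and 1618 CPM in the fresh sets and 4706, 6231, 6533 and 8525 CPM in the explant sets. DESeq2 passed 20 of the 24. The count of 17 became 0 without fresh set 1, 5 without fresh set 2 and 11 without explant set 3 or explant set 4.

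Hmgcs1, which makes the HMG-CoA that enters the pathway, had 55.03 and 107 CPM in the fresh sets and 389, 592, 522 and 685 CPM in the explant sets. The groups were well apart, with the lowest explant set above the higher fresh set. The mean rose from 81.1 ± 36.9 CPM (SD, n = 2) to 547 ± 125 CPM (SD, n = 4), a log2 fold change of 2.75 ± 0.32 (SE, edgeR adjusted p = 0.0028).

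Enzymes of the isoprenoid part followed the same order of groups. Mvd, the decarboxylase that yields isopentenyl diphosphate, rose with a log2 fold change of 1.81 (edgeR adjusted p = 0.0122). Idi1, which isomerises that product, had 26.4 and 47.2 CPM in the fresh sets and 157 to 314 CPM in the explant sets. Fdps, which builds farnesyl diphosphate, had 56.3 and 70.99 CPM in the fresh sets and 354, 431, 394 and 652 CPM in the explant sets, a mean fold of 7.19. Mvk, the mevalonate kinase, did not pass, with 5.93 and 30.2 CPM in the fresh sets and 33.4 to 86.9 CPM in the explant sets (edgeR adjusted p = 0.484).

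The committed sterol branch rose at most measured steps. Fdft1, which makes squalene, rose 3.81-fold and Sqle, which oxidises it, 3.82-fold. Lss, which closes the ring to lanosterol, had 81.6 and 62.97 CPM in the fresh sets and 209 to 386 CPM in the explant sets. Cyp51, the lanosterol demethylase, had 34.5 and 53.95 CPM in the fresh sets and 203, 363, 432 and 514 CPM in the explant sets, an 8.54-fold mean difference. Msmo1, which removes further methyl groups, was tightly placed in the fresh sets at 94.9 and 96.6 CPM and stood at 393 to 764 CPM in the explant sets. Tm7sf2, Nsdhl and Sc5d, enzymes of the later steps, passed with log2 fold changes of 2.92, 2.23 and 2.35. Dhcr7, a reductase of the last steps, did not pass. It had 26.7 and 49.7 CPM in the fresh sets and 90.7, 170, 218 and 350 CPM in the explant sets (edgeR adjusted p = 0.122). Hsd17b7 and Ebp, enzymes of the middle steps, had 12.1 and 8.48 CPM and 38.1 and 31.1 CPM in the fresh sets and 13.6 to 41.1 CPM and 37.03 to 97.5 CPM in the explant sets, with edgeR adjusted p-values of 0.253 and 0.673. Acat2, whose product can condense acetyl-CoA at the entry of the pathway, was in the list too and rose 4.99-fold.

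Sterol sensing and transport genes were also among the 17. Insig1 encodes the anchor that holds SREBP in the reticulum and is itself an SREBP target. It had 23.96 and 40.3 CPM in the fresh sets and 249, 312, 337 and 459 CPM in the explant sets, a mean fold of 10.6 (log2 3.39 ± 0.40 SE, edgeR adjusted p = 0.0028). Stard4, a carrier of cholesterol between membranes, rose 7.05-fold. Srebf2, the gene of SREBP2 itself, had 111 and 85.1 CPM in the fresh sets and 111, 238, 163 and 254 CPM in the explant sets and did not pass (edgeR adjusted p = 0.349). Its explant set 1 was level with fresh set 1. On a scale per kilobase of gene length, which allows genes to be compared, the highest mean levels among the sterol genes named here were 369 CPM per kilobase for Fdps and 196 for Msmo1 in explant cells, and 51.3 for Fdps in fresh cells.

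**Figure D2:**
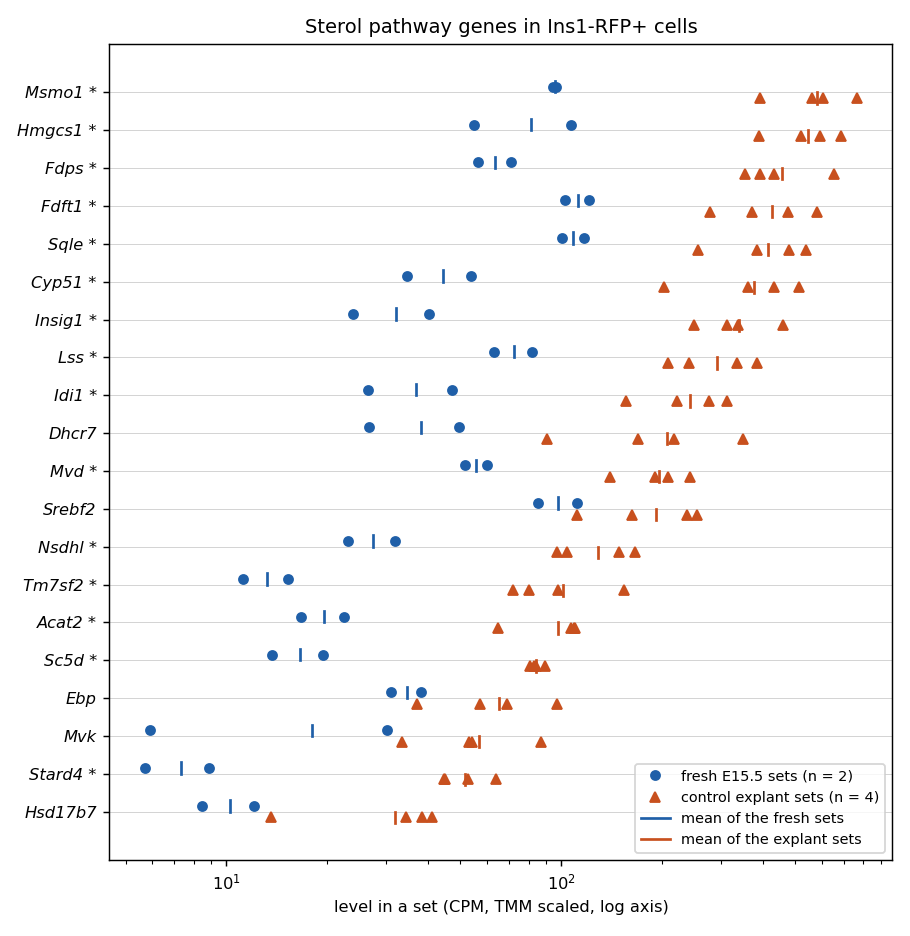
Each row is one of the genes of the sterol list shown here, all with reads in both fresh sets, each mark the level of that gene in 1 set (CPM, log axis) and each short line a group mean. Asterisks mark genes with an edgeR adjusted p under 0.05. The explant marks lie to the right of the fresh marks in every row but that of Ebp, and in the row of Srebf2 the lowest explant mark is level with the higher fresh mark.

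The difference was spread over the cells. Summed over the list, single explant cells ranged from 2811 to 13867 CPM with a median of 6474 CPM, and single fresh cells from 746 to 3713 CPM with a median of 1351 CPM. Of the 58 explant cells, 54 exceeded the highest fresh cell, namely 7 of 8, 12 of 12, 15 of 18 and 20 of 20 in sets 1 to 4. Insig1 reached 10 CPM in all 58 explant cells and in 4 of 10 and 19 of 29 cells of the fresh sets. With each cell thinned to 200000 reads these numbers were 58, 5 of 10 and 20 of 29. Cells are not replicates, so these counts describe the sets and carry no test.

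**Figure D3:**
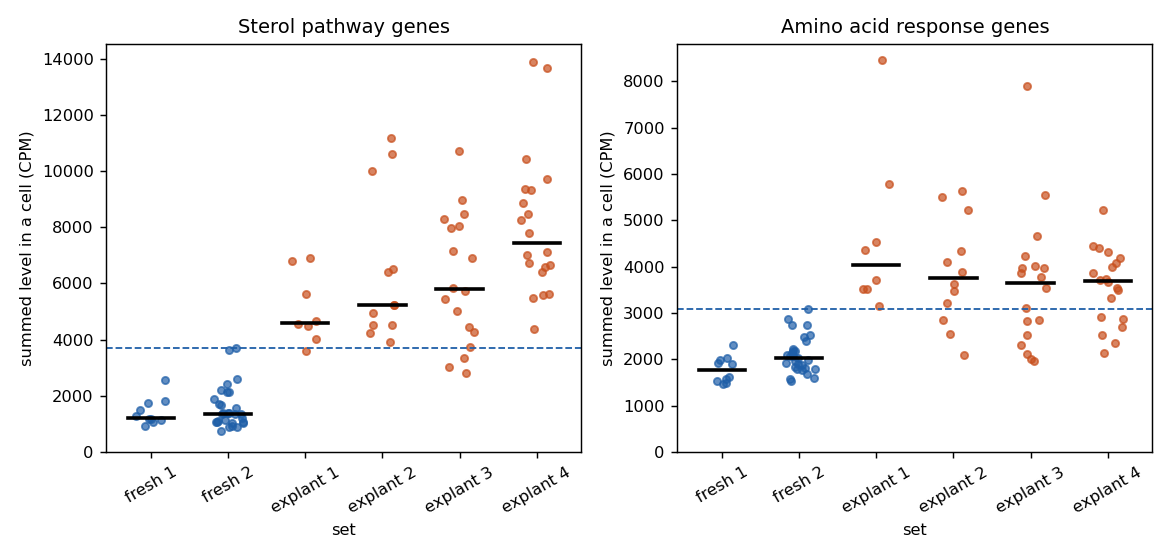
Each point is 1 cell, placed by its set on the horizontal axis and by the summed level (CPM, linear axis) of the sterol list (left) or the amino acid response list (right). Black bars are set medians and the dashed line is the highest fresh cell. In the left panel 54 of 58 explant cells lie above that line and in the right panel 42 of 58.

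Of the fatty acid list 2 of 16 tested members passed, both desaturases and both higher. Scd2, a stearoyl-CoA desaturase that makes oleate, had 80.9 and 73.4 CPM in the fresh sets and 641, 841, 837 and 1205 CPM in the explant sets. The mean rose 11.4-fold (log2 3.51 ± 0.34 SE, edgeR adjusted p = 0.0022), and Scd2 passed in each of the 19 alternative fits. Fads1, the delta-5 desaturase of long-chain fatty acids, had 43.4 and 29.03 CPM in the fresh sets and 205, 160, 204 and 257 CPM in the explant sets. Scd1, the sister gene of Scd2, had no read in the fresh sets and 8.30, 8.66, 25.6 and 70.01 CPM in the explant sets, at least 434-fold higher on the mean against a floor of 3 reads over the fresh sets, but it did not pass (edgeR adjusted p = 0.109). Whether reads were split between these sister genes was not tested. Fads2, the delta-6 desaturase, stood at 3.02 and 10.3 CPM against 41.2 to 79.6 CPM and also missed the threshold (edgeR adjusted p = 0.0683). Fasn, the fatty acid synthase, had 155 and 170 CPM against 202 to 496 CPM, with an edgeR adjusted p of 0.488. All 16 log2 fold changes of the list were above 0, with a median of 1.32, and every explant set was above both fresh sets in 10, a separation seen in 8.49% of all tested genes.

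Of the other genes that passed, most were outside the lists. Acsl4, which activates long-chain fatty acids, rose 3.25-fold, Ptdss1, a phosphatidylserine synthase, 2.42-fold, Pcyt2, the rate-limiting enzyme of phosphatidylethanolamine synthesis, 3.90-fold, and Dbi, an acyl-CoA binding protein, 2.58-fold. In the list of mTORC1 and lysosome genes 1 of 17 tested members passed, the protease Ctsl, with 146 and 237 CPM in the fresh sets and 407 to 505 CPM in the explant sets. The median log2 fold change of that list was 0.56, and every explant set was above both fresh sets in 13 of the 17, beside 8.49% of all genes. Rragd, a GTPase that places mTORC1 on lysosomes, had 16.8 and 9.96 CPM in the fresh sets and 41.9 to 86.3 CPM in the explant sets and did not pass (edgeR adjusted p = 0.381). Dpp7, a peptidase of intracellular vesicles, rose 3.42-fold. Vrk1, a nuclear kinase, had 13.3 and 22.9 CPM in the fresh sets and 77.3 to 118 CPM in the explant sets, and Ogdhl, a mitochondrial dehydrogenase-like protein, rose 4.80-fold. Of the 19 alternative fits, Ptdss1 and Dpp7 lost their call in 11, Acsl4 and Ctsl in 10, Dbi and Pcyt2 in 9, Ogdhl in 4 and Vrk1 in 3.

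The amino acid response list had 4 of its 30 tested members pass, all higher, with a median log2 fold change of 1.38, also with the 3 members that had no fresh read set at their lower bound. In 18 of the 30 every explant set was above both fresh sets, and in 1 below, beside 8.49% and 8.61% of all tested genes. DESeq2 passed 14 of the 30 as higher, against 1.85% of all genes it gave an adjusted p. The summed level of the list was 1804 and 2115 CPM in the fresh sets and 4231, 3740, 3714 and 3743 CPM in the explant sets.

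The upstream stretches of several list members are shown because they hold the core of the amino acid response element, the site that ATF4 and its partners bind. That of Hmgcs1, a gene of the sterol list, is shown for the core of the sterol response element instead. TGATGNAA, read on both strands, was found in the RefSeq promoter windows (250 bases before to 50 after the start site, build GRCm38.p6) of 10 of the 27 list members with a window, or 37.0%. The share was 4.51% of all 27025 genes with a window and 2.68% of the 10415 tested genes with a window. The list was chosen for genes of this response, so its share describes the list and tests no response in the explants. The core of the sterol response element, TCACNCCAC, was in 1 of 16 windows of the sterol list, that of Hmgcs1, beside 1.44% of all genes. Of the other motifs searched on both strands, the cyclic AMP element TGACGTCA was in 1 of the 27 windows of the amino acid list (2.03% of all genes), the hypoxia core ACGTG in 9 (21.8%) and the reticulum stress half-site CCACG in 21 (35.5%). The shares of the list were 3.7%, 33.3% and 77.8%, beside 3.73%, 28.8% and 51.7% of the tested genes with a window. The stretches below run 5′ to 3′ on the strand of the gene, with the matching letters in capitals, and that of Slc7a11 holds a second core on the opposite strand. TTGCATCA is the amino acid core on the opposite strand, and the capitals of Hmgcs1 are the sterol core.
Hmgcs1 (chr13:119690184-119690252, plus strand): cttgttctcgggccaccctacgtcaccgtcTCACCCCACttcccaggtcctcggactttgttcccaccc
Chac1 (chr2:119351019-119351086, plus strand): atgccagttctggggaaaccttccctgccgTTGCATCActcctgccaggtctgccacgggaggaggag
Atf3 (chr1:191183406-191183473, minus strand): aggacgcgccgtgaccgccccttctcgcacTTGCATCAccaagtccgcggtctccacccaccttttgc
Pycr1 (chr11:120643814-120643881, minus strand): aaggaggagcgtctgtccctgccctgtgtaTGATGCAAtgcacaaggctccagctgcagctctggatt
Slc7a11 (chr3:50443642-50443709, minus strand): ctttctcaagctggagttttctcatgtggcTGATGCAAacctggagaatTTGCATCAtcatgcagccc
Fgf21 (chr7:45615592-45615659, minus strand): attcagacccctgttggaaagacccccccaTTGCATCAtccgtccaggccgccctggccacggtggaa
The sterol core ended 129 bases before the RefSeq start site in Hmgcs1. The amino acid core ended 186 bases before it in Chac1, 103 in Atf3, 96 in Pycr1, 59 and 40 in Slc7a11 and 132 in Fgf21. A match of letters is a description and shows no binding. Of the 10 members with the amino acid core, every explant set was above both fresh sets in 5, and of the 17 with a window but without it, in 10. The genes with the core therefore included some with large differences, such as Chac1, and some with none that could be measured, such as Fgf21, with at most 3.09 CPM in any of the 6 sets. Pycr1, which makes proline, had 5.83 and 16.3 CPM in the fresh sets and 32.8, 53.2, 30.6 and 22.5 CPM in the explant sets (edgeR adjusted p = 0.294). Slc7a11, the cystine importer, overlapped, with 2.37 and 1.76 CPM in the fresh sets and 1.46 to 16.3 CPM in the explant sets. Atf3, a stress-induced factor, was decided by 1 set, with 0 and 0.027 CPM in the fresh sets and 3.83, 0.265, 4.28 and 106 CPM in explant sets 1 to 4.

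Atf4, the gene of the factor itself, had 137 and 135 CPM in the fresh sets and 429, 336, 444 and 334 CPM in the explant sets. The mean rose 2.83-fold, with the groups well apart (log2 1.501 ± 0.21 SE, edgeR adjusted p = 0.0083). Chac1, a glutathione-degrading enzyme and a well-known ATF4 target, had 4.32 and 6.05 CPM in the fresh sets and 142, 79.0, 127 and 145 CPM in the explant sets. That is a mean fold of 23.8 (log2 4.55 ± 0.51 SE, edgeR adjusted p = 0.0028). It reached 10 CPM in 1 of 10 and 3 of 29 fresh cells and in 6 of 8, 8 of 12, 9 of 18 and 12 of 20 explant cells. Trib3, a pseudokinase that feeds back on ATF4, had no read in any fresh cell and 38.1, 22.03, 22.2 and 18.1 CPM in the explant sets, at least 388-fold higher on the mean against a floor of 3 reads over the fresh sets (edgeR adjusted p = 0.0026). It reached 10 CPM in 20 of 58 explant cells, and 0 of 39 fresh cells allows a share of up to 7.69%.

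Genes of one-carbon metabolism and amino acid supply followed. Mthfd2, a mitochondrial folate enzyme, had 23.8 and 29.5 CPM in the fresh sets and 173, 128, 128 and 123 CPM in the explant sets (log2 2.37 ± 0.28 SE, edgeR adjusted p = 0.0028). Cars, which charges cysteine transfer RNA and was outside the list, rose 7.13-fold from 10.9 and 18.5 CPM. Asns, the asparagine synthetase, had 40.9 and 51.8 CPM in the fresh sets and 323, 328, 245 and 167 CPM in the explant sets without passing (edgeR adjusted p = 0.0883). Phgdh, Psph and Shmt2, enzymes of serine and glycine synthesis, also had every explant set above both fresh sets, at edgeR adjusted p-values of 0.442, 0.38 and 0.27. Psat1, the serine aminotransferase, overlapped, with 15.9 and 2.92 CPM in the fresh sets and 7.50 to 62.04 CPM in the explant sets (edgeR adjusted p = 0.774). Other members overlapped too. Ddit3, the stress factor CHOP, had 18.2 and 28.4 CPM in the fresh sets and 24.3 to 46.8 CPM in the explant sets, and Ppp1r15a, which restores translation, had 67.2 and 69.6 CPM against 33.9 to 147 CPM.

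Genes of protein folding in the reticulum lay lower in explant cells on the whole, and 1 of 22 tested members passed. Hsp90b1, the chaperone GRP94, had 2820 and 2303 CPM in the fresh sets and 1007, 1229, 1281 and 1258 CPM in the explant sets. Its mean fell by 1.10 on the log2 scale (± 0.15 SE, edgeR adjusted p = 0.0075). In 10 of the 22 every explant set was below both fresh sets, beside 8.61% of all genes, in 1 above, and the median log2 fold change was -0.29. Pdia3, a disulfide isomerase, had 2994 and 2823 CPM against 1686 to 1918 CPM, and just missed the threshold (edgeR adjusted p = 0.0511). Hspa5, the chaperone BiP, had 4454 and 3812 CPM in the fresh sets and 2143 to 2830 CPM in the explant sets (edgeR adjusted p = 0.109). Herpud1, a degradation factor that is also an ATF4 target, was the member with the opposite order, at 223 and 242 CPM against 282 to 353 CPM. The call of Hsp90b1 was lost without fresh set 1 and without the cells that carried duct markers.

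Ins2 was the only hormone gene to pass. It had 60775 and 63832 CPM in the fresh sets and 35715, 28989, 37395 and 39486 CPM in the explant sets, so the groups were well apart, and its mean fell by 0.82 on the log2 scale (± 0.13 SE, edgeR adjusted p = 0.0159). Its call was lost without either fresh set, without the cells that carried duct markers and by limma on mean CPM per cell. Ins1 had 26023 and 42138 CPM in the fresh sets and 17429 to 26092 CPM in the explant sets, and the groups overlapped. Ins1 and Ins2 are near-identical, and reads may be split between them. In CPM of each cell's total, the median cell had 67680 and 97130 CPM of both together in the fresh sets. The medians in explant sets 1 to 4 were 67814, 51034, 46989 and 55020 CPM. These medians overlapped (exact permutation test over sets, two-sided p = 0.133). Iapp, the peptide co-secreted with insulin, had 15566 and 20400 CPM against 17791 to 21923 CPM. Npy, a peptide of immature beta cells, had 1201 and 1220 CPM in the fresh sets, 1137 CPM in explant set 3 and 35.8 to 71.3 CPM in the other explant sets. Ins1 and Ins2 together reached 3000 CPM in all 58 explant cells and all 39 fresh cells. Iapp and Npy are given only as sums over cells. In such sums, fewer cells with a transcript and less of it per cell cannot be told apart.

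Cd200, a surface glycoprotein of the immunoglobulin family, was the remaining gene that fell. It had 164 and 127 CPM in the fresh sets and 42.9, 47.1, 27.8 and 38.6 CPM in the explant sets, a fall of 1.90 on the log2 scale (± 0.28 SE, edgeR adjusted p = 0.0122). It reached 10 CPM in 10 of 10 and 25 of 29 fresh cells and in 4 of 8, 8 of 12, 9 of 18 and 8 of 20 explant cells. Its call was lost without fresh set 1 and without the cells that carried duct markers.

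No member of the lists of beta cell transcription factors (19 tested), glucose sensing and ion channels (18), late maturation (14), hormone granules (23) or endocrine progenitors (16) passed by edgeR. Of their 78 different tested members, 13 had an unadjusted p under 0.05, beside 8.48% of all tested genes, and DESeq2 passed 7, beside 2.34%, namely Pax4, Chgb and Pcsk1n as higher and Nnat, Slc2a2, Slc30a8 and Trpm5 as lower. Chgb and Pcsk1n, which encode granule proteins, had 1692 and 2218 CPM and 345 and 451 CPM in the fresh sets and 2399 to 3907 CPM and 623 to 757 CPM in the explant sets. The master factors Pdx1, Neurod1 and Pax6 had overlapping groups, with Pdx1 at 480 and 489 CPM in the fresh sets and 456 to 580 CPM in the explant sets. Pax4, a factor of early beta cells, had 14.4 and 37.99 CPM in the fresh sets and 144, 121, 136 and 67.1 CPM in the explant sets (log2 fold change 2.15, edgeR adjusted p = 0.195). Of the 14 tested late maturation genes, 5 had every explant set below both fresh sets and 1 had every explant set above. The shares of all tested genes were 8.61% and 8.49%. Slc2a2, the glucose transporter GLUT2, had 434 and 505 CPM against 209 to 255 CPM, Slc30a8, the zinc transporter of insulin granules, 365 and 437 CPM against 116 to 231 CPM, and Trpm5, a cation channel, 79.9 and 72.4 CPM against 23.4 to 41.4 CPM (edgeR adjusted p of 0.117, 0.285 and 0.122). Nnat, an imprinted gene of the reticulum in beta cells, had 7759 and 10416 CPM in the fresh sets and 3379 to 4452 CPM in the explant sets (edgeR adjusted p = 0.101). G6pc2, the islet glucose-6-phosphatase, had the opposite order, with 668 and 914 CPM against 1124 to 1387 CPM (edgeR adjusted p = 0.6). The late factor Mafa was at 4.53 CPM or less in all 6 sets.

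**Figure D4:**
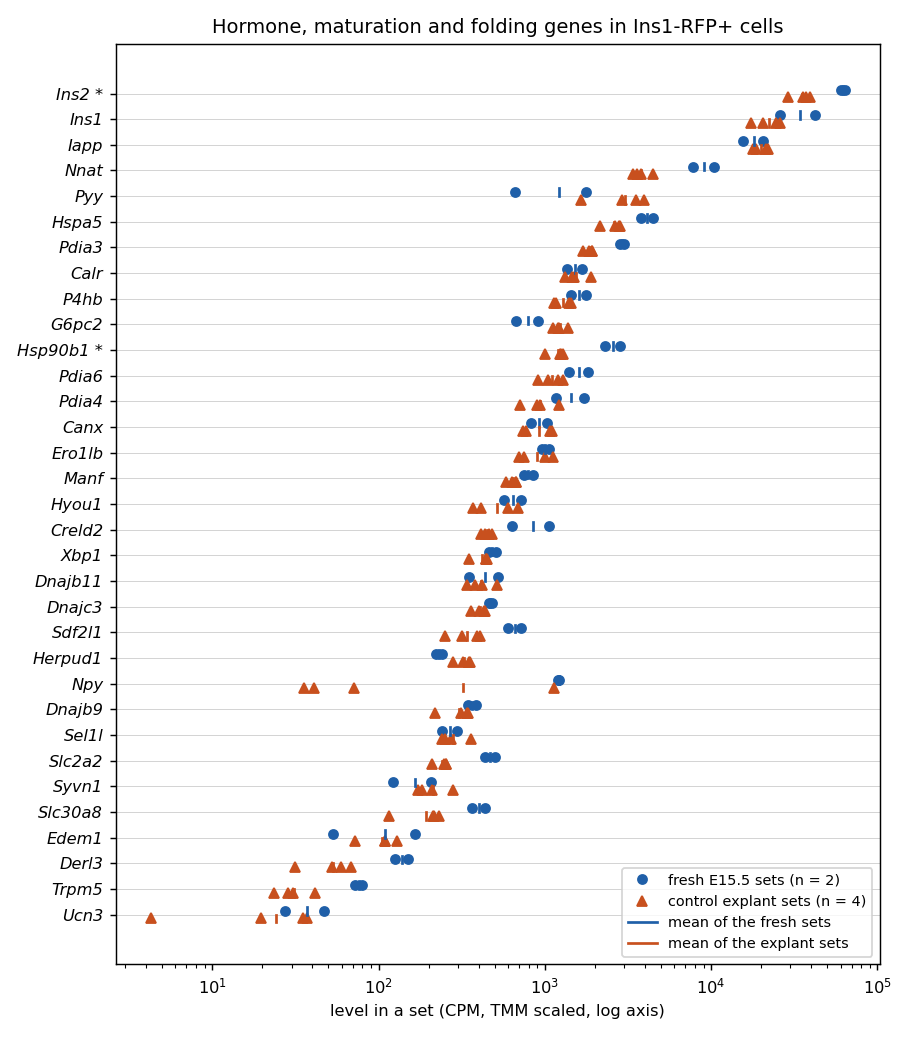
Each row is a gene of the hormone or folding list or a maturation gene, each mark its level in 1 set (CPM, log axis), each short line a group mean, and asterisks mark Ins2 and Hsp90b1, the genes with an edgeR adjusted p under 0.05. Folding genes such as Hspa5 and Pdia3 have explant marks to the left of the fresh marks, and the marks of Npy are split among the explant sets.

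Lists that could mark the setting of culture were examined as well, and for their members the share of all tested genes with every explant set above both fresh sets was 8.49%, and below 8.61%. No gene passed by edgeR among 24 hypoxia response genes, whose median log2 fold change was 0.03 and of which 0 had every explant set above and 4 every explant set below the fresh sets. Pdk1, a hypoxia-induced kinase that restrains pyruvate oxidation, had 44.9 and 74.3 CPM in the fresh sets and 11.9 to 20.2 CPM in the explant sets (edgeR adjusted p = 0.157). None of 16 glycolysis genes passed by edgeR, 4 had every explant set below both fresh sets and 0 above, and Eno1 had 132 and 245 CPM against 53.5 to 105 CPM (edgeR adjusted p = 0.164). DESeq2 passed 3 of the 24 hypoxia genes, Ankrd37, Mxi1 and Pdk1, and 2 of the 16 glycolysis genes, Eno1 and Tpi1. All were lower, a call DESeq2 made for 0.489% of the genes it gave an adjusted p. Immediate early genes, which respond within minutes to handling and growth factors, differed among the explant sets. Fos had 750 and 414 CPM in the fresh sets and 34.5, 81.0, 257 and 2217 CPM in explant sets 1 to 4, and the sum of the list was 8079 CPM in explant set 4 against 459 to 1807 CPM in the other explant sets. The sums of the sterol and amino acid lists in explant sets 1 to 3, as in set 4, were each above both fresh sets. Whether handling bears on those lists was not tested. None of 24 ribosomal protein genes passed, with a median of -0.18 and 5 members with every explant set below both fresh sets, and none of 23 nuclear oxidative phosphorylation genes, with a median of -0.08. No tested member passed among heat shock (13), oxidative stress and metal (20), interferon and antigen presentation (13), inflammation (8), p53 target (16), S phase (19), G2 and M phase (13), ERK feedback (14), circadian clock (14), imprinted (26), YAP and SRF target (15) or epithelial cytoskeleton genes (16). Every explant set was above both fresh sets in 6 members of the p53 list and 4 of the heat shock list, and below in 0 of either. Mdm2, which degrades p53 and is its target, had 100 and 75.4 CPM in the fresh sets and 124 to 190 CPM in the explant sets (edgeR adjusted p = 0.409). No tested member of the alpha (11), delta, epsilon and PP (8), duct (11), acinar (6), mesenchyme (5), endothelium (2), leukocyte (5), neural and glial (4) or erythroid and liver (8) lists passed either. Of the 59 different tested markers in these last 9 lists 8 had an unadjusted p under 0.05, and DESeq2 passed 3, Afp, Rbp4 and Ttr. In the other 17 lists without a gene that passed, from hypoxia to ribosomal proteins, 40 of 291 different tested members had an unadjusted p under 0.05 and DESeq2 passed 10, beside 8.48% and 2.34% of all genes. A gene that did not pass is not shown to be alike in both groups.

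The levels were then set beside cells of other sorts, as a description with no test, in CPM of each set's total. The sterol list summed to 4965 to 8149 CPM in the control explant sets and to 5398 to 7896 CPM in 4 sets of explants cultured in the same way with 10 µM U0126. It summed to 1421 and 1615 CPM in the fresh Ins1-RFP+ sets. Uncultured insulin-high cells of the Ngn3-GFP reporter sorts were chosen for at least 1000 CPM of the insulin genes and more of these than of Gcg. Only sets with at least 5 such cells were used, which left out E14.5 set 1 with 2 cells and E17.5 set 3 with 4. In these cells the sterol list summed to 1418 and 1481 CPM at E14.5 and 1246 and 1269 CPM at E15.5. It summed to 1192 to 1582 CPM in 4 sets of E16.5 and 1141 to 1890 CPM in 3 sets of E17.5. All 8 explant sets were therefore above all 13 uncultured sets, the fresh Ins1-RFP+ sets included. The same held for the amino acid response list, at 3578 to 4464 CPM in control and 2747 to 4059 CPM in U0126 explants and 1570 to 2232 CPM over the uncultured sets. Chac1 reached 6.66 CPM at most in the uncultured sets and 51.4 to 168 CPM in the U0126 explants. The folding list did not keep that order. It summed to 15461 to 17861 CPM in control explants, 19688 to 22138 CPM in U0126 explants and 15593 and 17946 CPM in uncultured E15.5 Ngn3-GFPhigh cells. Ins2 likewise stood at 30524 to 37745 CPM in control explants and at 29672 and 36828 CPM in Ngn3-GFPhigh cells of E14.5. The Ngn3-GFP cells were chosen by their insulin genes, so their Ins2 level follows in part from that cut-off. It therefore cannot show what Ins2 level is usual without culture.

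**Figure D5:**
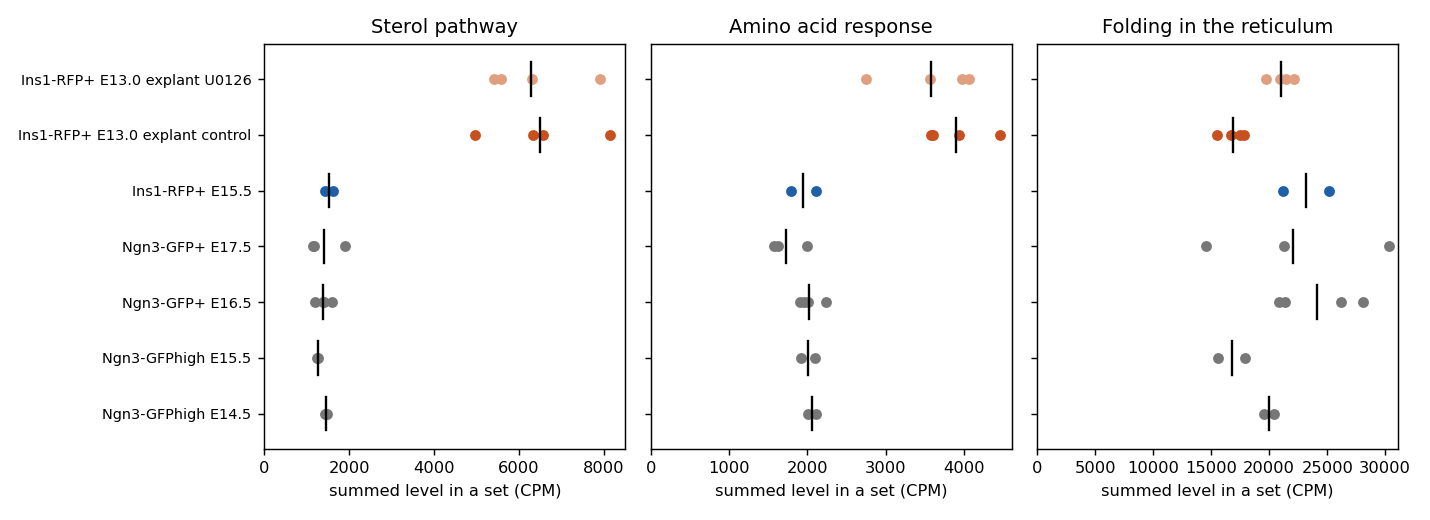
Each point is the summed level (CPM, linear axis) of a gene list in 1 set, for explants, fresh Ins1-RFP+ cells and insulin-high cells of the Ngn3-GFP sorts, and each black line a group mean. In the left and middle panels all explant sets lie to the right of all uncultured sets, and in the right panel the groups overlap.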

How the data were processed

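Smart-seq2 libraries of single sorted mouse cells were analysed (18 PCR cycles, no molecular identifiers, per the labels' protocols). The authors deposited whole-number read counts for 40824 genes and 92 ERCC spike-ins, and the submitters' processing notes name TopHat2 2.1.0, HTSeq 0.6.0, Bowtie2 and the mm10 build. The table's other 1624 columns of per-cell values, the deposited TPM values and the droplet files were not used. No gene named mt- was in the table, and no 2 cells had identical counts.

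ERCC rows were left out and counts were summed per set. The test was the quasi-likelihood F test of edgeR 4.0.16 in R 4.3.3, after filterByExpr and TMM scaling, in 1 fit of 10 sets (2 fresh, 4 control explant, 4 U0126) that share 1 estimate of spread. CPM are scaled with TMM unless said otherwise, and each SE was taken as the fold change (log2) divided by the square root of F. DESeq2 1.42.0 and limma 3.58.1 were alternatives. Named genes were the 12 largest differences in each direction among genes that passed, with at least 50 CPM in 1 group and no overlap of sets, plus list members; Ptdss1, Dbi, Acsl4, Dpp7, Pcyt2, Ogdhl and Vrk1 were named after their values were seen. Members and the 37 lists were chosen with earlier results of these data known. Intervals, floors and limits cover counting error only. Promoters are RefSeq windows. Some list members are counted in list totals and are not reported singly here.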

Additional observations from a re-analysis of the deposited data

Results flagged for a closer look

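In the 4 control explant sets the following values lay apart from the other 3 by Dixon's test at 95%, which chance alone does in about 1 of 20 groups. They arose among 129 genes and 37 list sums examined. Explant set 1 was low for Acat2 (64.9 CPM) and Xbp1 (350 CPM) and high for Mthfd2 (173 CPM), for the sum of the amino acid response list (4231 CPM) and for the sum of the oxidative stress and metal list (3817 CPM). Explant set 2 was low for the sum of the circadian clock list (425 CPM). Explant set 3 was low for Slc2a2 (209 CPM) and Slc30a8 (116 CPM) and high for Npy (1137 CPM) and for the sum of the nuclear oxidative phosphorylation list (6636 CPM). Explant set 4 was high for Ddit3 (46.8 CPM), Slc3a2 (468 CPM), Atf3 (106 CPM) and Fos (2217 CPM).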

How the results depend on the processing

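In all 19 alternatives, of which 3 were chosen after seeing the data, the 36 genes kept their direction. The separation of their sets left little room for another outcome. The number of genes that passed, 36, was 320 by DESeq2, 87 by limma on mean CPM per cell, 71 among genes with 10 CPM, 57 with a replicate block, 22 without cells with markers of another type, 1 with explant sets 1 and 2 only and 3 with explant sets 3 and 4 only, and it ranged from 3 to 33 when each set was left out in turn. Those higher, 33, were 253 by DESeq2, 71 by limma, 58 among genes with 10 CPM, 1 and 3 with the pairs of explant sets, and 3 to 29 with a set left out. Those lower, 3, were 67 by DESeq2, 16 by limma, 13 among genes with 10 CPM, 10 with the replicate block, 6 with sets thinned to the smallest total, 5 by library size only, 0 without cells with markers of another type and with either pair of explant sets, and 0 to 4 with a set left out. The sterol count, 17, was 11 without cells with markers of another type, 0 and 1 with the pairs of explant sets and 0 to 15 with a set left out. The amino acid count, 4, was 14 by DESeq2, 7 by limma and among genes with 10 CPM, 0 and 1 with the pairs of explant sets and 1 to 4 with a set left out. The folding count, 1 lower, was 6 by DESeq2, 3 among genes with 10 CPM, 2 by limma, with the replicate block, by library size only, by TMM without the 20 highest genes and with thinned sets, 0 without cells with markers of another type and with either pair of explant sets, and 0 to 2 with a set left out. Leaving sets or cells out, by its construction, leaves fewer samples or reads. For the other settings the cause was not tested.

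Some genes that did not pass turned sign. When each set was left out in turn, the log2 fold change ranged from -0.033 to 0.363 for Iapp, -0.291 to 0.112 for Neurod1, -0.236 to 0.00435 for Pax6 and -2.23 to 0.643 for Fos, which was also -0.208 without fresh set 2. With explant sets 1 and 2 only it was -0.0195 for Pdx1, 0.0243 for Neurod1, 0.0275 for Pax6 and -3.33 for Fos, and with sets 3 and 4 only -0.205 for Slc7a11. With the replicate block it was -0.00694 for Pdx1 and -3.48 for Fos, and by limma -1.43 for Fos.

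Set numbers were not shown to pair the samples. Same-numbered fresh and control explant sets deviated with correlations of -0.00254 and -0.0134 over 14721 genes, and same-numbered control and U0126 explant sets with 0.0843, 0.0458, 0.0495 and 0.114, not all over 0.1. As a hint from the data, 7 of 8 explant sets correlated best with their own number in the other treatment, and median ERCC shares by number were 2.18%, 2.22%, 1.35% and 0.808% in control and 2.23%, 2.22%, 1.48% and 0.773% in U0126 sets. With the replicate block 33 of the 36 genes passed, and Stard4, Acsl4 and Ptdss1 did not. Restricting to cells with 1000 CPM of the insulin genes removed no cell. With 2 fresh sets and 234134 to 1761780 reads per cell, the smallest log2 difference in size that passed was -0.82, that of Ins2.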

Other observations

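Tmem144, a membrane protein whose values were looked at because it passed the test outside the rule for named genes, had 1 read in all 39 fresh cells and 54.9, 11.9, 13.6 and 31.5 CPM in the 4 control explant sets (edgeR adjusted p = 0.0033). It reached 10 CPM in 18 of 58 control explant cells, 10 of 60 U0126 explant cells and 0 of 39 fresh cells, and in uncultured insulin-high cells it was at most 6.47 CPM in any set.

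Ttr, a thyroid hormone carrier that islet cells express, had 693 and 805 CPM in the fresh sets and 1366, 1844, 1888 and 1402 CPM in the control explant sets (edgeR adjusted p = 0.25). Rbp4, which binds it in plasma, had the opposite order, with 2085 and 2160 CPM in the fresh sets and 931 to 1503 CPM in the explant sets (edgeR adjusted p = 0.181).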
